A study of Mus musculus with 2 samples.

Results

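Hyaluronan is a long, unsulfated sugar chain of the extracellular matrix, abundant in skin. The genes described here are those that make it (Has1, Has2, Has3 and Ugdh), cleave it (Hyal1, Hyal2 and Hyal3) and bind it at the cell surface (Cd44). They were taken by gene name, as the non-control array probes that carry one of these 8 names. The set was chosen with earlier results of these data known. Of 37324 gene names on the array, these 8 had 14 of its 56605 probes. On both arrays, 6 of the 8 genes and 11 of the 14 probes gave a signal well above background. Over the whole array this held for 19872 of the 37324 gene names and 29993 of the 56605 probes.

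RNA came from skin tumours that ultraviolet B (UVB) light had induced on the shaved backs of male mice. One sample was from P2ry6+/+ (wild-type) mice and the other from P2ry6-/- mice, and each was hybridised to 1 single-colour Agilent array. Irradiation began at 2 months of age with 180 mJ/cm2 for 10 weeks, rose by 10 mJ/cm2 a week to 300 mJ/cm2 at week 22 and stayed there until week 40. The strain, the number of mice or tumours behind each RNA sample and the part of P2ry6 that was deleted are not given in the sources used here. A single array stood for each genotype, so no test was possible and all differences below compare 2 RNA samples. A whole tumour also mixes cell types, so fewer cells of a type and less RNA per cell cannot be told apart.

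P2ry6 encodes a receptor for the nucleotide UDP. Its signal was higher, not lower, in the sample that should lack it. In what follows the arrays are called WT-labelled and KO-labelled, after their labels. One probe read 364 units on the WT-labelled and 835 on the KO-labelled array, and the other read 137 and 318. The difference was 1.29 ± 0.01 on the log2 scale (SD, n = 2 probes), or 2.44-fold higher. Where the deletion leaves the probed sequence in place, this is no check of the label. Each direction below rests on the labels as given.

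Hyaluronan is made at the plasma membrane. The 3 hyaluronan synthases, Has1, Has2 and Has3, join UDP-glucuronic acid and UDP-N-acetylglucosamine in alternation, push the growing chain out of the cell and release UDP. Ugdh, UDP-glucose dehydrogenase, makes the UDP-glucuronic acid. Hyal2, anchored at the cell surface, and Hyal1, in the lysosome, are the main hyaluronidases of body tissues. Cd44 is the chief hyaluronan receptor of many cells, keratinocytes and leukocytes among them. In skin, hyaluronan fills the dermis and the spaces between the living cells of the epidermis, and Has3 is a synthase that keratinocytes use.

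A difference between the arrays is only as good as the short sequence that was measured, so a stretch of 30 bases from each of several 60-base probes is shown here, in the orientation of the transcript. The synthase and Ugdh probes come first because Has3 had the one large difference, Has2 is its relative, and Ugdh was read by 2 probes that gave different sizes of difference. Capitals mark AATAAA, the core of the signal at which a transcript is cut and given its poly(A) tail.
Has3: ggatattacaaacccgtctttcttaatagt
Has2: acacaccctgacAATAAAtgaaactaaaac
Ugdh, probe 1: cttctgtagctgcttgttacatttgcatct
Ugdh, probe 2: gactttgaagccatgaaatcactgtgctag

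The hyaluronidase and Cd44 probes are shown because different probes of one gene had very different brightness.
Hyal1, probe 1: aatagtcacatagtgaatcagagtttagga
Hyal1, probe 2: agcattatggtctacacctttcatcccagc
Hyal2, probe 1: aAATAAAtatgccagggatgtgcctcagta
Hyal2, probe 2: tgttctaagggggagagaaacatcccctga
Cd44, probe 2: gacgagacccggaatctgcagagtgtggac
Cd44, probe 3: acagatttcttcgacccaatctcacatcca

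AATAAA, searched on this strand alone, occurred in 5529 of all 56605 probes (9.77%). Among the probes of the 8 genes it was found in that of Has2 and in Hyal2 probe 1. Its presence in a probe is a description of the letters there and not evidence of a working site.

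Values below are the scanner software's processed signal with its own error estimate. The level of a probe is the log2 signal minus the array's 75th percentile, which lay at 347 units on the WT-labelled and 327 on the KO-labelled array. A difference is the KO-labelled minus the WT-labelled level, averaged over a gene's measured probes. Replicate spots of one probe differed by an SD of 0.13, and different probes of one gene by an SD of 0.38. The number of arrays is what limits precision here.

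Among the 6 measured hyaluronan genes, Has3 was the 1 that was at least 2-fold lower in the KO-labelled sample, and 0 were 2-fold higher or more. The background over all 19872 measured genes was 5.04% lower by that rule and 4.82% higher. The other 5 hyaluronan genes differed by less than 2-fold. Signs were mostly negative, with 5 of the 6 genes below 0, but 54.9% of all measured genes lay below 0 too. The median difference of the 6 was -0.18, against -0.06 for all measured genes with an SD of 0.65. Apart from Has3, this set of genes sat inside the spread of the arrays as a whole.

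**Figure D1:**
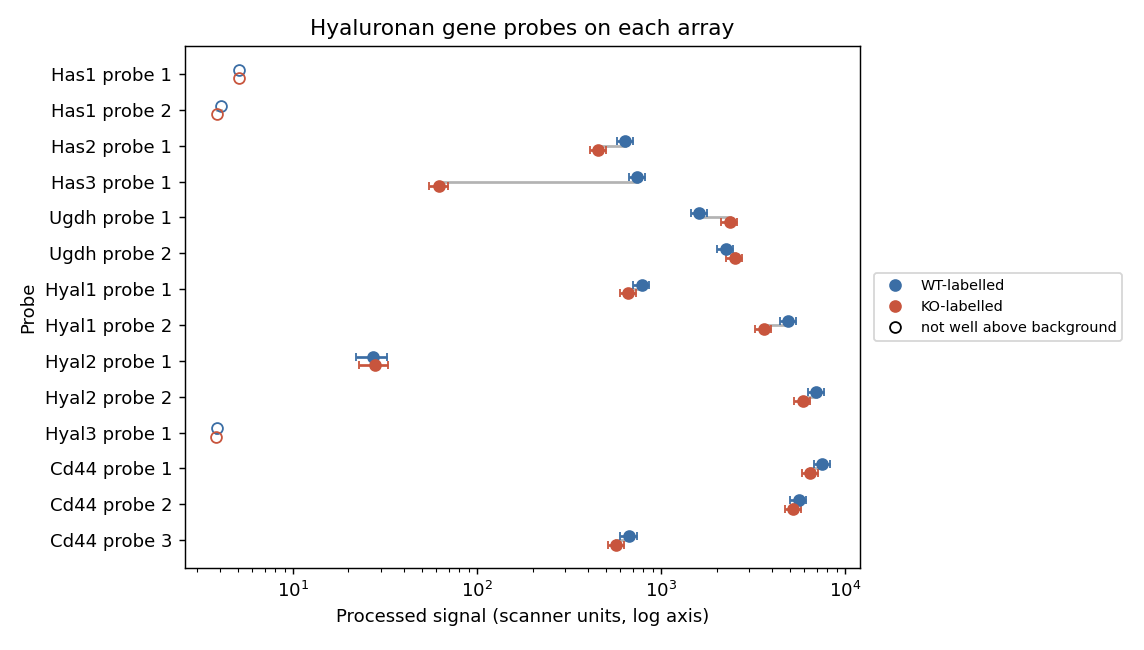
Processed signal (scanner units, log axis) of each of the 14 probes on the WT-labelled and KO-labelled array, with bars for the scanner software's error estimate; open circles were not well above background. The Has3 probe stands alone in its gap, from 740 to 62.1 units, while the other measured probes lie close together on both arrays.

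The 3 synthases behaved in 3 ways. Has3 was read by 1 probe, at chr8:109406334-109406393 on the plus strand (mm9). It gave 740 ± 74.1 units on the WT-labelled array and 62.1 ± 7.33 on the KO-labelled array. Both readings were well above background, the dimmer one by 1.84 log2 units over the lowest level so marked on its array. Has3 thus passed from above the 75th percentile of its array (level 1.09) to well below it (level -2.40).

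The Has3 difference was -3.49 with a scanner error of 0.22, or 11.2-fold lower. Only 28 of the 19872 measured genes had a more negative difference. The size was smaller, 6.01-fold, under normexp background correction with an added offset of 50 units. The correction and the offset were not tried apart. Has3 stayed at least 2-fold lower in all 10 alternative settings. Since a single probe read the gene, no second sequence could check the value, and a difference between transcript forms cannot be told from one in the whole gene.

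Has2, the synthase known best from fibroblasts and from embryonic heart development, was also read by 1 probe, at chr15:56497356-56497415 on the minus strand. It read 637 ± 63.8 units on the WT-labelled array and 457 ± 45.8 on the KO-labelled array. The difference of -0.39, with a scanner error of 0.20, was 1.31-fold lower. Of all measured genes, 23.5% had a more negative difference than Has2, so it lay in the ordinary range.

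Has1 was at the floor of the array. Its probes, at chr17:17980413-17980472 and chr17:17984273-17984332 on the minus strand, read 5.05 and 4.04 units on the WT-labelled array and 5.09 and 3.86 on the KO-labelled array. Neither probe was well above background on either array, so no difference is given. Of the 3 synthase genes, then, Has2 and Has3 were detected in both samples and Has1 in neither at the sensitivity of these probes.

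**Figure D2:**
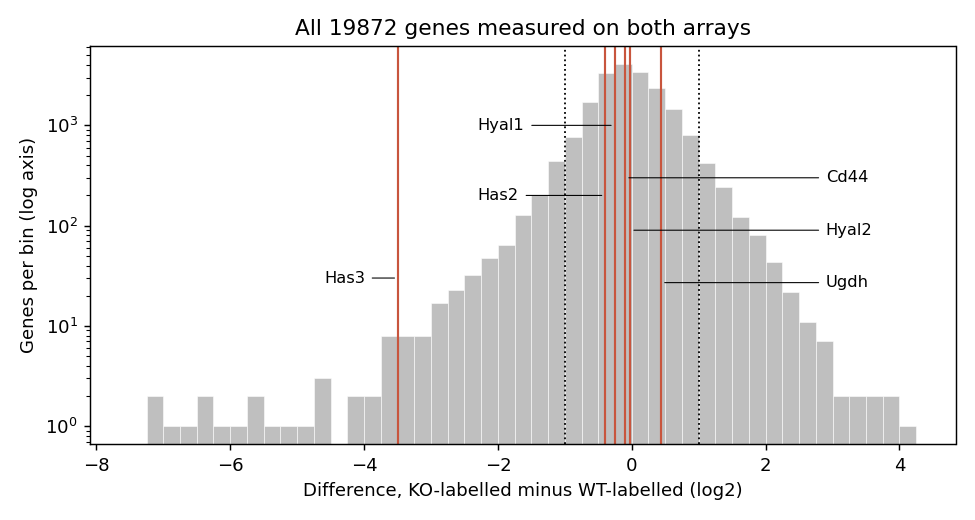
Histogram (genes per bin, log axis) of the log2 difference (KO-labelled minus WT-labelled) over the 19872 genes measured on both arrays, with a red line at each of the 6 measured hyaluronan genes and dotted lines at 2-fold. Has3, at -3.49, lies in the far left tail, where 28 genes are lower, and the other 5 hyaluronan genes lie in the central bulk.

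The genes next to Has3 did not share its difference. Among the 3 nearest protein-coding neighbours on each side in the RefSeq gene order, 5 were measured, from -0.50 to 0.57. They included Cdh1, the epithelial adhesion molecule E-cadherin, at -0.30, and Cdh3, P-cadherin of the basal epidermis, at -0.43. The highest, Tango6, was at 0.57 ± 1.28 (SD, n = 2 probes), so its probes differed widely. For Has2 the 5 measured neighbours ran from -0.32 to 0.23, and for Ugdh from -0.49 to 0.18.

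Markers of skin compartments differed between the same 2 samples. For scale, 5.04% of all measured genes were at least 2-fold lower and 4.82% at least 2-fold higher. Of the 9 measured of 10 suprabasal and cornified keratinocyte markers, 6 were at least 2-fold lower, all 9 were below 0, and their summed signal was 471530 units on the WT-labelled and 203525 on the KO-labelled array. The sebaceous gland list had 9 of its 9 markers lower by 2-fold or more, with sums of 113762 and 20259. Of 7 basal keratinocyte markers 1, Krt5, was at least 2-fold higher and none lower, with a median of 0.05. Their sums were 376949 and 471756, within which Krt5 gave 57660 and 171998.

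Other lists with lower markers were mast cell and adipocyte. Of 6 measured mast cell markers, 4 were at least 2-fold lower and 2, Kit and Tpsb2, were above 0. The mast cell sums were 4261 and 1688. Of 4 measured adipocyte markers, 2 were at least 2-fold lower and 2, Pparg and Lep, were above 0. The adipocyte sums were 20902 and 10592. Adipoq and Plin1 of the adipocyte list were not well above background on either array. Fibroblast markers, relevant to Has2, had 1 of 10 at least 2-fold higher and none lower. Of these 10 markers, 7 were above 0 and 3 below, with a median of 0.19. The fibroblast sums were 48750 and 43973, in scanner units that, unlike the differences, were not scaled between the arrays. No marker of the basal, suprabasal, sebaceous or fibroblast list that had a probe was below background. The part of these shifts in the values of Has3 and Has2 was not tested.

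Ugdh was the one measured hyaluronan gene with a positive difference. Its probes lay close together at chr5:65804532-65804591 and chr5:65804760-65804819, on the minus strand. Probe 1 read 1616 ± 162 units on the WT-labelled and 2356 ± 236 on the KO-labelled array, 1.55-fold higher. Probe 2 read 2243 ± 224 and 2514 ± 251, 1.19-fold higher. Both probes pointed the same way with different sizes.

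The gene's difference was 0.44 ± 0.27 (SD, n = 2 probes), or 1.36-fold. Of all measured genes, 81.5% had a lower difference than Ugdh, so a shift of this size was common. On the spike-in scale, which ties each array to RNA added in known amount, it was -0.02, so its direction held relative to other genes of the array and not on that scale. Ugdh supplies the glucuronic acid of chondroitin and heparan sulfate as well as that of hyaluronan.

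The other genes that supply UDP-sugars were measured throughout, and none was 2-fold apart. Of 18 genes 7 had a difference above 0 and 11 below, with a median of -0.29 against -0.06 for all genes. The extremes were Uap1, which makes UDP-N-acetylglucosamine, at -0.65, and Nagk, the kinase that salvages N-acetylglucosamine, at 0.41 ± 0.42 (SD, n = 3 probes). On the spike-in scale Uap1 was 2.17-fold lower and Nagk was at -0.05. The list median on that scale was -0.75, against -0.52 for all genes. Gfpt1, which begins the hexosamine pathway, was at 0.12, and its relative Gfpt2 at -0.53. Ugp2, which makes the UDP-glucose that Ugdh uses, was at -0.32, the opposite sign to Ugdh.

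Chondroitin and heparan sulfate synthesis draws on the same UDP-glucuronic acid. Of 18 such genes, 16 were measured and none was 2-fold apart, with 10 above 0, 6 below and a median of 0.09, which turned to -0.37 on the spike-in scale. The extremes were Chpf2, a chondroitin polymerising factor, at 0.65 ± 0.57 (SD, n = 2 probes), and Extl1, of the heparan sulfate exostosin family, at -0.64 ± 0.31 (SD, n = 2 probes). Extl1 passed 2-fold on the spike-in scale (2.15-fold lower) and with no filter on dim probes (2.32-fold lower). Xylt1, which starts the chains, was detected in the WT-labelled sample alone, at least 1.19-fold higher there. Its level there, -3.98, was close to -4.29, the lowest level marked well above background on that array.

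The hyaluronidases differed little. Hyal2, Hyal1, Naa80 and Hyal3 follow each other in that order of start position in the RefSeq table, and the Hyal1 and Hyal3 gene models overlap. Hyal1 was read at chr9:107481893-107481952 and chr9:107483891-107483950, plus strand. Probe 1 gave 784 ± 78.5 units on the WT-labelled and 663 ± 66.4 on the KO-labelled array. Probe 2 gave 4898 ± 490 and 3615 ± 361.

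Both Hyal1 probes were lower on the KO-labelled array, by -0.16 and -0.35 on the log2 scale. The gene's difference was -0.25 ± 0.14 (SD, n = 2 probes), or 1.19-fold lower. This is smaller than the SD of 0.38 between probes of one gene over the array.

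Hyal2 showed why a gene's mean level can mislead. Probe 1, at chr9:107474225-107474284 on the plus strand, was dim, with 27.3 ± 5.20 units on the WT-labelled and 27.9 ± 5.0 on the KO-labelled array. Probe 2, at chr9:107474949-107475008, was bright, with 6984 ± 698 and 5893 ± 589. Their differences were 0.12, with a scanner error of 0.38, and -0.16, so they disagreed in sign.

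The Hyal2 mean was -0.02 ± 0.20 (SD, n = 2 probes), and it lay between -0.48 and 0.05 over the alternative settings, positive in 3 of them. The bright probe alone gave -0.16. No direction is given for Hyal2.

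Hyal3, whose activity in tissue is weak, was read by 1 probe at chr9:107489520-107489579. It gave 3.84 units on the WT-labelled and 3.79 on the KO-labelled array and was not well above background on either. The 7 measured genes next to or within the hyaluronidase cluster, Hyal1 itself among them, ran from -0.84 to -0.02. Highest was Naa80, an actin-modifying acetyltransferase whose start lies between those of Hyal1 and Hyal3, at -0.02.

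Other genes of hyaluronan breakdown were likewise within 2-fold. Of 9 such genes, 6 were measured, with 3 above 0, 3 below and a median of -0.07, whose sign changed in 6 of the 10 alternative settings. Cemip, a secreted hyaluronan-degrading protein, stood at -0.53 ± 0.49 (SD, n = 2 probes), while its membrane-bound relative Cemip2 stood at 0.56 ± 0.23 (SD, n = 4 probes). These relatives had opposite signs, each by more than its SD over probes. The sperm and testis forms Spam1, Hyal5 and Hyal6 were not well above background on either array.

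Hexa, of lysosomal hexosaminidase, and Gusb, beta-glucuronidase, encode enzymes that take sugars off the ends of hyaluronan fragments. Hexa stood at 0.52 and Gusb at 0.06 ± 0.06 (SD, n = 2 probes).

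Cd44 was bright on both arrays and differed little between them. Probe 1, at chr2:102652758-102652817 on the minus strand, read 7496 ± 750 units on the WT-labelled and 6447 ± 645 on the KO-labelled array. Probe 2, at chr2:102654278-102654337, read 5592 ± 559 and 5219 ± 522. Probe 3, at chr2:102677971-102678030, read 668 ± 66.9 and 570 ± 57.1. Probe 3 lay 25.2 kb from probe 1 and lists 3 RefSeq transcripts in the array file, where probes 1 and 2 each list 4, with all 3 among them.

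The Cd44 probes differed by -0.13, -0.01 and -0.14 in that order, which makes -0.10 ± 0.07 for the gene (SD, n = 3 probes), or 1.07-fold lower. The probe that lists fewer transcripts had a difference within 0.38, the SD between probes of one gene, of the other two. The sign was not stable, since quantile normalization gave 0.09. No direction is given for Cd44. Among its 5 measured neighbours the range was -1.05 to 0.77, with the epithelial transcription factor Ehf lowest.

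Macrophages carry Cd44 as well, and their markers differed between the samples. Of 10 measured of 11 macrophage markers, 5 were higher and 1, Mrc1, lower by 2-fold or more. Among all measured genes 4.82% were higher and 5.04% lower by that rule. The summed signals of the 10 were 5718 units on the WT-labelled and 10595 on the KO-labelled array. The remaining marker, Cd163, was detected at a low level (-3.50) in the WT-labelled sample alone, at least 1.66-fold higher there. T cell markers had 5 of 7 measured, with none at least 2-fold higher and 1 lower. What these cells contribute to the Cd44 signal was not tested.

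Other hyaluronan receptors were within 2-fold where measured on both arrays, which held for 6 of 7, with 2 above 0, 4 below and a median of -0.13. Tlr2, a receptor of innate immunity that hyaluronan fragments can engage, was highest at 0.81. Stab2, the scavenger receptor that clears hyaluronan from lymph and blood, was lowest at -0.64, on a dim probe that read 40.0 and 24.2 units. Stab2 was 2.15-fold lower on the spike-in scale and 1.07-fold lower with no filter on dim probes. Hmmr, the motility receptor RHAMM that is made in dividing cells, was at -0.57 ± 0.12 (SD, n = 3 probes).

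Lyve1, the lymphatic relative of Cd44, stood at 0.34, also on a dim probe. Of 5 lymphatic endothelial markers 2 were measured, none 2-fold apart, and Prox1 and Flt4 were not well above background on either array. Layn, layilin, was detected in the KO-labelled sample alone, at least 1.87-fold higher there. Its level there was low, at -3.39, where the lowest level marked well above background on that array was -4.23.

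**Figure D3:**
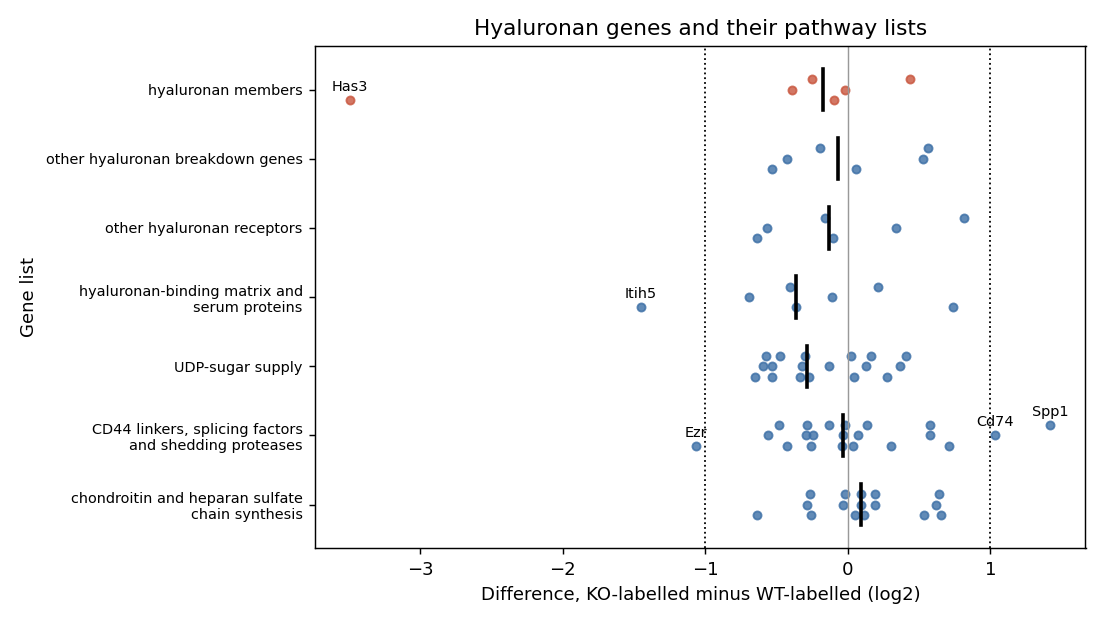
Log2 difference (KO-labelled minus WT-labelled) of each measured gene in the hyaluronan set and in 6 lists of related genes, 1 point per gene, with a bar at each list's median and dotted lines at 2-fold. Most points lie within 2-fold in every list, and Has3 at -3.49 is far below any other gene plotted.

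Among proteins that bind hyaluronan in matrix and serum, 7 of 19 were measured, 1 was at least 2-fold lower and 0 higher. By that rule 5.04% of all measured genes were lower and 4.82% higher. Itih5, one of the heavy chains that attach to hyaluronan, was at -1.45, or 2.74-fold lower, from 81.9 to 28.2 units, and only 1.46-fold lower with normexp correction. Versican (Vcan), the large hyaluronan-binding proteoglycan of the dermis, was highest at 0.74 ± 0.53 (SD, n = 3 probes). The list had 2 genes above 0 and 5 below, with a median of -0.36 that turned to 0.03 when dim probes were kept. The other 12, Acan and Ptx3 among them, were not well above background.

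The genes that tie Cd44 to the cytoskeleton, splice it, cut it or bind it beside hyaluronan numbered 22, of which 21 were measured. At least 2-fold higher were 2, at least 2-fold lower 1, and the median was -0.03. The shares over all measured genes were 4.82% higher and 5.04% lower. Ezrin (Ezr), which links the Cd44 tail to actin in epithelial cells, was at -1.07, or 2.09-fold lower, with signals of 12566 and 5657 units, but less than 2-fold lower under quantile normalization (1.77-fold), cyclic loess (1.81-fold) and the deposited values (1.81-fold). Its relative moesin (Msn) was at 0.03 ± 0.16 (SD, n = 3 probes).

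Osteopontin (Spp1), a secreted Cd44 ligand that macrophages and tumours make, was at 1.42, or 2.68-fold higher, with signals of 822 and 2077 units. Cd74, the invariant chain of antigen-presenting cells, which signals together with Cd44, was at 1.03, or 2.05-fold higher, with 6351 and 12253. On the spike-in scale these 2 were less than 2-fold higher, at 1.94-fold and 1.48-fold, as was Cd74 under normexp at 1.98-fold. The part of the macrophage marker differences given above in these values was not tested.

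The splicing factors Esrp1 and Esrp2 keep Cd44 in its epithelial forms. They stood at -0.56 ± 0.15 (SD, n = 2 probes) and -0.49, both less than 2-fold apart. Among the proteases that shed Cd44, Mmp14 stood at 0.58 and Adam10 at -0.03 ± 0.24 (SD, n = 2 probes), and Mmp7 was not well above background.

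**Figure D4:**
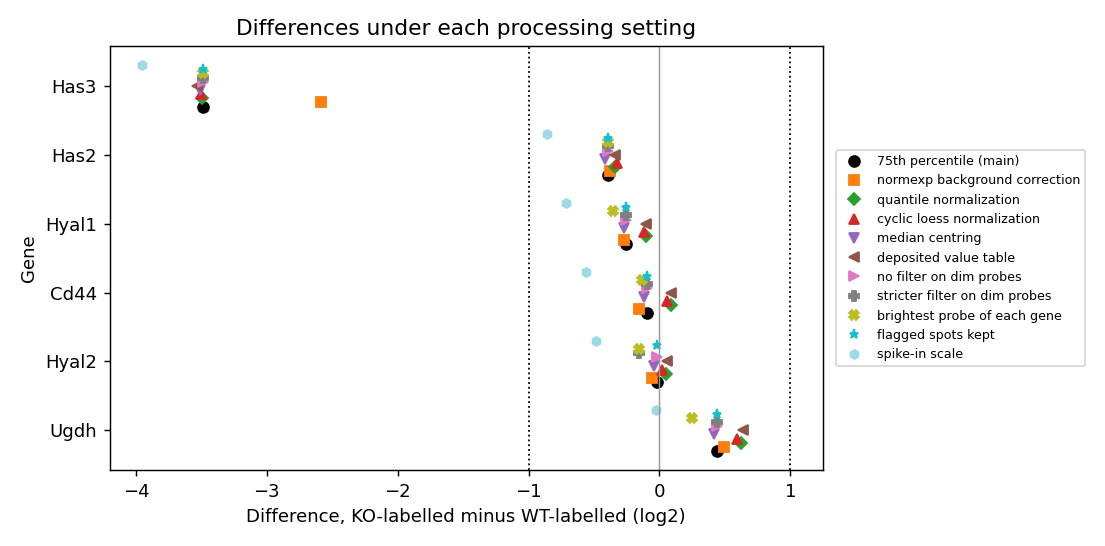
Log2 difference (KO-labelled minus WT-labelled) of each measured hyaluronan gene under the setting used here and the 10 alternatives, 1 point per setting, with dotted lines at 2-fold. Has3 stays below -2.5 in every setting, from -3.95 to -2.59, while the other 5 stay within 2-fold and Hyal2, Cd44 and Ugdh cross 0.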

How the data were processed

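Total RNA of UVB-induced skin tumours was profiled on 2 single-colour arrays, 1 per genotype; slide and scan were shared, per the file headers. Per the submitters' processing notes and the file headers, spot intensity was read by the authors in Agilent Feature Extraction 10.7.1.1 with background subtraction, and no normalization between arrays was applied to it. A second deposited file holds log2 values for these arrays, whose columns match quantile-normalized processed signal; it served as an alternative.

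Control spots and outlier spots (102 and 105) were left out and 0 spots were saturated. Of non-control spots 57.8% and 57.9% were well above background. The log2 processed signal was reduced by each array's 75th percentile. A gene is the mean of its probes well above background on both arrays, and 2-fold means 1 log2 unit. For a gene above background on 1 array, the bound sets its level against the lowest level marked well above background on the dim side, or the dim probe's own level where that is higher.

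Names came from the array files or, through transcript accessions, from RefSeq (GRCm38.p6): 31453 probes kept the file's name, 1535 were updated and 23606 had no match. Positions are mm9, per the file headers. No exon annotation of that build was used, and for position RefSeq gave only neighbour order and the overlap of Hyal1 and Hyal3. All named genes are the 8 members, P2ry6, and from each list those past 2-fold, the extremes in each direction and some relatives chosen after their values were seen. Some values of listed genes are not reported here. Members and lists were chosen with earlier results of these data known.

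R 4.3.3 with limma 3.58.1 and Python 3.11.15 were used. Alternatives were normexp with an offset of 50, quantile, cyclic loess, median centring, the deposited values, no filter, a filter at 3 times the lowest signal well above background, the brightest probe, outlier spots kept and, chosen after seeing the data, a scale from 8 spike-in probes. The calculation was tested on simulated data.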

Additional observations from a re-analysis of the deposited data

How the results depend on the processing

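No paired analysis was possible because each genotype had 1 array, and no replicate could be left out. Counts of the 6 measured hyaluronan genes, 1 at least 2-fold lower and 0 higher, were the same in all 10 alternatives. Has3 lay between -3.95 and -2.59, with -2.59 (6.01-fold lower) under normexp. The spike-in scale, chosen after seeing the data, lowered all differences by 0.46 and gave Has3 -3.95 (15.5-fold lower), Has2 -0.86, Hyal1 -0.72, Cd44 -0.56, Hyal2 -0.48 and Ugdh -0.024. Cd44 and Hyal2 turned positive under quantile normalization (0.09 and 0.05), cyclic loess (0.06 and 0.02) and the deposited values (0.08 and 0.05). Has2 and Hyal1 stayed below 0 in all 10. Genes at least 2-fold higher and lower over the array numbered 957 and 1002, against 368 and 578 under normexp, 320 and 3127 on the spike-in scale, and 2244 and 2135 of 37320 with no filter.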
